A study of Mus musculus with 16 samples.

Results

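The genes described are 10 that encode enzymes of cytosolic NADPH supply and of the sugar phosphate and folate reactions tied to it. They were chosen by symbol as *Me1*, *G6pdx*, *Pgd*, *Pgls*, *Taldo1*, *Tkt*, *Rpia*, *Rpe*, *Idh1* and *Mthfd1l*. All 10 were among the 18209 named genes of the table, and all 10 passed the filter on low values with 15781 genes in all. Whole livers of 16 mice were measured by RNA sequencing at an age of 20 days, 4 from each of 4 genotypes. Control mice (Trspfl/fl) carry floxed alleles of *Trsp*, the gene of the selenocysteine tRNA that selenoproteins need, and wild-type KEAP1. *Trsp* knockout mice (Trspfl/fl::AlbCre) also carry Cre under the albumin promoter, which the study uses to delete *Trsp* specifically in hepatocytes. *Keap1* mutant mice (Keap1C226SC613Shomo::Trspfl/fl) have no Cre and are homozygous for the KEAP1 substitutions C226S and C613S, which remove a pair of cysteines that sense hydrogen peroxide. Double mutant mice (Keap1C226SC613Shomo::Trspfl/fl::AlbCre) carry all of these alleles. The floxed *Trsp* alleles are thus shared by all 16 mice, and Cre without floxed *Trsp* was not analysed here.

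NADPH is the electron donor with which glutathione reductase and thioredoxin reductase keep thiols reduced, and with which the liver builds fatty acids and cholesterol. Hepatocytes make it in the cytosol from malate by malic enzyme, from glucose 6-phosphate by the oxidative branch of the pentose phosphate pathway, from isocitrate by IDH1 and from folate one-carbon units, while the non-oxidative branch links pentose phosphates to glycolysis. NRF2, the transcription factor that KEAP1 marks for degradation, is known to act on genes of malic enzyme and of the pentose phosphate pathway through antioxidant response elements, and *Me1* and *G6pdx* are also classical genes of the fed, lipogenic liver. The 4 genotypes ask how far the response to loss of selenoproteins depends on the cysteine pair of KEAP1.

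*Me1* had the largest differences among the 10 genes. It was lower in every *Keap1* mutant mouse than in any mouse of the other 3 genotypes. By pairs, 3.04% of all genes were separate and lower in the *Keap1* mutant than in the control. Separate and higher in the double mutant than in the *Keap1* mutant were 3.97%. *Me1* rose 3.67-fold with *Trsp* deletion on the *Keap1* mutant background (limma adjusted p = 0.0493). This call held in 4 of 10 other settings and in 3 of 16 fits with 1 library left out. *Tkt* was 2.08-fold lower in double mutant than in *Trsp* knockout mice (limma adjusted p = 0.0144), which held in 9 of 10 and 14 of 16. No other gene of the 10 had an adjusted p under 0.05 in any comparison as fitted here, and *G6pdx*, the entry enzyme of the oxidative branch, had log2 fold changes between -0.23 and 0.28 in the 4 pairwise comparisons.

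Stretches around a transcription start are shown for 4 of the genes, because the antioxidant response element is the best known link between NRF2 and this pathway. The sequences are from RefSeq on GRCm38.p6, another build than that behind the counts, and run from 140 bases before to 15 bases after an annotated start, 5′ to 3′ on the strand of the gene. Capitals mark a match, on either strand, to TGACNNNGC, the core of the element. The stretches are chr9:86695900-86696054 on the minus strand for *Me1*, chrX:74428866-74429020 on the minus strand for *G6pdx*, chr4:149166068-149166222 on the minus strand for a second annotated start of *Pgd*, and chr14:30548991-30549145 on the plus strand for *Tkt*, which holds no match.
*Me1*: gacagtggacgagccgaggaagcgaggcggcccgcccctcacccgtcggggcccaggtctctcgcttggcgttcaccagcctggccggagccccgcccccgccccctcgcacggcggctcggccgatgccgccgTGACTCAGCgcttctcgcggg
*G6pdx*: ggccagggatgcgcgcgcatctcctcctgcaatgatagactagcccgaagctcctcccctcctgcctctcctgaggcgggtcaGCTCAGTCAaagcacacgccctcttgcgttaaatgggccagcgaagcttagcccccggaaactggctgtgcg
*Pgd*: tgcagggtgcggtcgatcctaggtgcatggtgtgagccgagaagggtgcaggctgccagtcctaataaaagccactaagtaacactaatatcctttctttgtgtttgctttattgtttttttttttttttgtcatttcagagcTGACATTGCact
*Tkt*: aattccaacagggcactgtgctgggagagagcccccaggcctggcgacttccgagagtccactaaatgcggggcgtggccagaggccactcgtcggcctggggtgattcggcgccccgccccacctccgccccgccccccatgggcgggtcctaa

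All 10 genes had at least 1 window of 300 bases, 250 before and 50 after a start, and 13 windows were searched in all. The core was found in 3 of the 13 windows, each of a different gene, and all 3 are among those printed above. It was not found at another annotated start of *Pgd*. It lies at bases -6 to 3 of *Me1*, on the opposite strand at -57 to -49 of *G6pdx*, and at 4 to 12 of the second start of *Pgd*, where the first transcribed base is 1 and there is no base 0. It is present in 12.4% of all 32851 windows of that length. The carbohydrate response core CACGTG (7.15% of all windows), the sterol response core TCACNCCAC (1.24%) and the amino acid response core TGATGNAA (3.97%), searched on both strands, were in none of the 13. A match of letters is a description and no sign of binding, and elements outside these windows were not searched.

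Each level below is on the deposited scale, log2(normalized count + 4), and each difference is on the same scale, which understates changes of weakly expressed genes. Differences were tested with limma over all 16 libraries and adjusted by Benjamini-Hochberg over all 15781 genes, and 95% intervals are not adjusted. Genes were called at the thresholds of the study, which ask for an adjusted p under 0.01 together with a log2 difference of more than 1 either way, and also by an adjusted p under 0.05 alone. Libraries held 11386721 to 19164140 reads. Double mutant replicate 1, labelled male, held 28799 reads of the female-specific *Xist* against 22 to 50 elsewhere, and 2 reads of 4 Y-linked genes against 1830 to 3066, so differences of the 10 genes with an unadjusted p under 0.05 that use it are given with and without it, as are the calls of other genes named that are lost without it. All 6 hepatocyte markers examined were detected in each genotype, and albumin made up 4.86% to 10.7% of reads, least in that same library. In whole liver, fewer cells of a type and less RNA per cell cannot be told apart. *Trsp* itself was not analysed here.

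**Figure D1:**
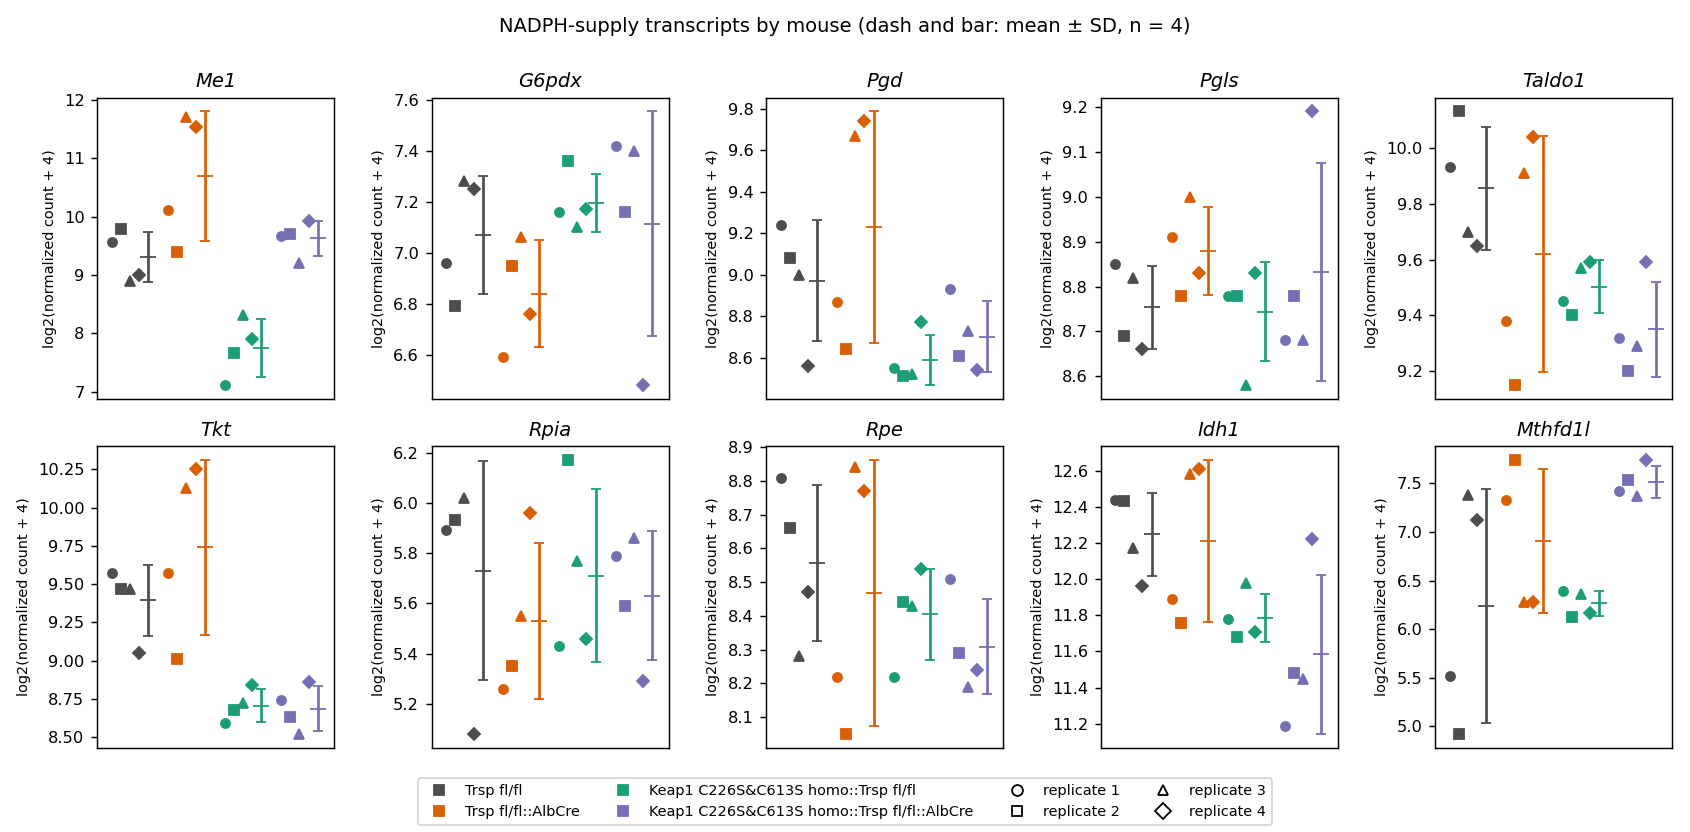
Level of each of the 10 transcripts by mouse, as log2(normalized count + 4) on the vertical axis, with colour for genotype, symbol for replicate, and mean ± SD of the 4 mice of a genotype. *Me1* in *Keap1* mutant mice lies between 7.11 and 8.32, under all other mice, and replicates 3 and 4 of the *Trsp* knockout stand at the top for *Me1*, *Tkt*, *Pgd* and *Idh1*.

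*G6pdx* (ENSMUSG00000031400) encodes glucose-6-phosphate dehydrogenase, the first and rate-limiting NADPH-making step of the oxidative branch. Its level was 6.96, 6.79, 7.28 and 7.25 in the control mice and 6.59, 6.95, 7.06 and 6.76 in the *Trsp* knockout. It was 7.16, 7.36, 7.10 and 7.17 in the *Keap1* mutant and 7.42, 7.16, 7.40 and 6.48 in the double mutant. The genotypes overlapped in each of the 4 pairwise comparisons, and the lowest mouse of all was replicate 4 of the double mutant. The log2 fold change with *Trsp* deletion was -0.23 (95% interval -0.64 to 0.18, limma adjusted p = 0.69) on wild-type KEAP1 and -0.08 (-0.49 to 0.33, limma adjusted p = 0.907) on mutant KEAP1. With the KEAP1 substitutions it was 0.13 (-0.28 to 0.53, limma adjusted p = 0.878) with *Trsp* intact and 0.28 (-0.13 to 0.68, limma adjusted p = 0.483) with *Trsp* deleted. None of these intervals reaches a log2 fold change of 1 in either direction, and each includes 0.

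*Pgls* encodes 6-phosphogluconolactonase, the step after glucose-6-phosphate dehydrogenase. It was the steadiest of the 10, with a pooled SD within genotypes of 0.150 against a median of 0.299 over all genes tested. Its mean level lay between 8.74 and 8.88 in the 4 genotypes, and its log2 fold changes lay between -0.05 and 0.13 in the pairwise comparisons.

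*Pgd* (ENSMUSG00000028961) encodes 6-phosphogluconate dehydrogenase, the second NADPH-making step of the branch. Its level was 9.24, 9.08, 9.0 and 8.56 in the control and 8.87, 8.64, 9.67 and 9.74 in the *Trsp* knockout. It was 8.55, 8.51, 8.52 and 8.77 in the *Keap1* mutant and 8.93, 8.61, 8.73 and 8.54 in the double mutant. Replicates 3 and 4 of the *Trsp* knockout stood above every other mouse, and the genotypes with mutant KEAP1 lay close together at the lower end. Between the pair of *Trsp*-deleted genotypes the log2 fold change with the substitutions was -0.53 (95% interval -0.99 to -0.07), which did not pass after adjustment (limma adjusted p = 0.214), and -0.60 (limma adjusted p = 0.284) without double mutant replicate 1. It was -0.38 with *Trsp* intact (limma adjusted p = 0.64), and the deletion of *Trsp* gave 0.26 and 0.11 on wild-type and mutant KEAP1 (limma adjusted p = 0.691 and 0.872).

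*Tkt* (ENSMUSG00000021957) encodes transketolase, which moves 2-carbon units between sugar phosphates in the non-oxidative branch. Its level was 9.57, 9.47, 9.47 and 9.05 in the control and 9.57, 9.01, 10.13 and 10.25 in the *Trsp* knockout. It was 8.59, 8.68, 8.72 and 8.84 in the *Keap1* mutant and 8.74, 8.63, 8.52 and 8.86 in the double mutant. Every mouse with mutant KEAP1 was below every mouse with wild-type KEAP1, and the genotypes with mutant KEAP1 overlapped. The share of all genes with this order was not counted. By pairs, 3.04% of all genes were separate and lower with the substitutions when *Trsp* was intact, and 4.08% when it was deleted. With *Trsp* deleted, *Tkt* fell by 1.05 with the substitutions (95% interval -1.50 to -0.61, limma adjusted p = 0.0144), which passed 0.05 and missed 0.01. With *Trsp* intact the log2 fold change was -0.69 (-1.13 to -0.24, limma adjusted p = 0.302). *Trsp* deletion gave 0.35 (-0.10 to 0.79, limma adjusted p = 0.57) on wild-type KEAP1 and -0.02 (-0.46 to 0.42, limma adjusted p = 0.982) on mutant KEAP1, and the difference of these effects was -0.37 (limma adjusted p = 0.656).

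Single libraries decided on which side of the thresholds the fall of *Tkt* lay. Without replicate 2 of the *Trsp* knockout, the lowest of that genotype, the log2 fold change was -1.30 (limma adjusted p = 0.000475), which passed the thresholds of the study. The adjusted p was 0.0546 without replicate 3 of the same genotype, 0.0623 without replicate 3 of the double mutant, and 0.102 with only the compared genotypes in the fit. Without double mutant replicate 1, the library with *Xist* reads, the log2 fold change was -1.07 (limma adjusted p = 0.043).

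*Taldo1* encodes transaldolase, which works beside transketolase. Its level was 9.93, 10.13, 9.70 and 9.65 in the control and 9.45, 9.40, 9.57 and 9.59 in the *Keap1* mutant. These groups did not overlap, and the log2 fold change was -0.35 (95% interval -0.71 to 0.01, limma adjusted p = 0.56). It was 9.38, 9.15, 9.91 and 10.04 in the *Trsp* knockout and 9.32, 9.20, 9.29 and 9.59 in the double mutant, which overlapped.

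*Rpe*, an epimerase, and *Rpia*, an isomerase, interconvert the pentose phosphates between the branches. Mean levels of *Rpe* lay between 8.31 and 8.56 and those of *Rpia* between 5.53 and 5.73. No pair of genotypes was separate for either, and the pairwise log2 fold changes lay between -0.16 and -0.09 for *Rpe* and between -0.20 and 0.10 for *Rpia*. *Rpia* had 24 to 71 reads per library, few enough for counting error to add to its spread, and its interval for *Trsp* deletion on wild-type KEAP1 ran from -0.72 to 0.32.

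*Me1* (ENSMUSG00000032418) encodes cytosolic malic enzyme, which releases NADPH as malate becomes pyruvate. Its level was 9.56, 9.79, 8.89 and 9.0 in the control and 10.12, 9.40, 11.70 and 11.54 in the *Trsp* knockout. It was 7.11, 7.67, 8.32 and 7.90 in the *Keap1* mutant and 9.67, 9.71, 9.21 and 9.92 in the double mutant. By their means the genotypes ran from the *Keap1* mutant (7.75 ± 0.50, SD, n = 4) over the control (9.31 ± 0.43) and the double mutant (9.63 ± 0.30) to the *Trsp* knockout (10.69 ± 1.11). The *Keap1* mutant was separate from each of the others, the control and the double mutant overlapped, and the *Trsp* knockout overlapped both through its replicate 2 at 9.40.

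With *Trsp* deletion on mutant KEAP1 the log2 fold change of *Me1* was 1.88 (95% interval 0.99 to 2.76, limma adjusted p = 0.0493), at the edge of 0.05. Without double mutant replicate 1 it was 1.86 (limma adjusted p = 0.118). Leaving out each of the 16 libraries in turn gave 1.66 to 2.07, with the adjusted p between 0.0159 and 0.176, and it was under 0.05 in 3 of these fits, those without *Trsp* knockout replicate 2, 3 or 4. The highest adjusted p came without *Keap1* mutant replicate 1, the mouse with the lowest level.

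On wild-type KEAP1 the log2 fold change of *Me1* with *Trsp* deletion was 1.38 (95% interval 0.50 to 2.27, limma adjusted p = 0.204), and 1.81 (limma adjusted p = 0.0398) without *Trsp* knockout replicate 2. The difference between the deletion effects was 0.49 (-0.76 to 1.75, limma adjusted p = 0.772), an interval that holds values on both sides of 0. The substitutions gave -1.56 (-2.45 to -0.67, limma adjusted p = 0.233) with *Trsp* intact and -1.06 (-1.95 to -0.18, limma adjusted p = 0.197) with *Trsp* deleted, the latter -1.08 (limma adjusted p = 0.337) without double mutant replicate 1. These comparisons share mice and are not independent of each other.

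*Idh1* (ENSMUSG00000025950) encodes the cytosolic isocitrate dehydrogenase that makes NADPH. Its level was 12.44, 12.43, 12.17 and 11.96 in the control and 11.89, 11.76, 12.58 and 12.61 in the *Trsp* knockout. It was 11.78, 11.68, 11.98 and 11.71 in the *Keap1* mutant and 11.19, 11.48, 11.45 and 12.22 in the double mutant. Replicate 4 of the double mutant stood apart above its fellows, among the mice with wild-type KEAP1. With *Trsp* deleted the log2 fold change with the substitutions was -0.63 (95% interval -1.10 to -0.15, limma adjusted p = 0.157), and -0.84 (limma adjusted p = 0.0219) without that mouse. Without double mutant replicate 1 it was -0.50 (limma adjusted p = 0.373). With *Trsp* intact it was -0.46 (limma adjusted p = 0.553), and *Trsp* deletion gave -0.04 and -0.20 on wild-type and mutant KEAP1.

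*Mthfd1l* (ENSMUSG00000040675) encodes the mitochondrial formate-making enzyme of folate metabolism, which feeds the cytosolic folate cycle. Its level was 5.52, 4.92, 7.38 and 7.12 in the control and 7.33, 7.74, 6.28 and 6.28 in the *Trsp* knockout. It was 6.39, 6.13, 6.36 and 6.17 in the *Keap1* mutant and 7.42, 7.53, 7.37 and 7.74 in the double mutant. The genotypes with mutant KEAP1 were each tight and did not overlap, with a log2 fold change of 1.25 (95% interval 0.29 to 2.22, limma adjusted p = 0.231), or 1.28 (limma adjusted p = 0.39) without double mutant replicate 1. In the genotypes with wild-type KEAP1, replicates 1 and 2 lay apart from replicates 3 and 4, below them in the control and above them in the *Trsp* knockout, and the log2 fold change was 0.67 (-0.29 to 1.64, limma adjusted p = 0.62). The SD was 1.21 in the control and 0.74 in the *Trsp* knockout, against 0.13 and 0.16 in the *Keap1* and double mutants, and the fit shares 1 estimate of spread over all 4. With only the genotypes with mutant KEAP1 in the fit the adjusted p was 0.00414, and *Mthfd1l* was then called at the thresholds of the study.

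**Figure D2:**
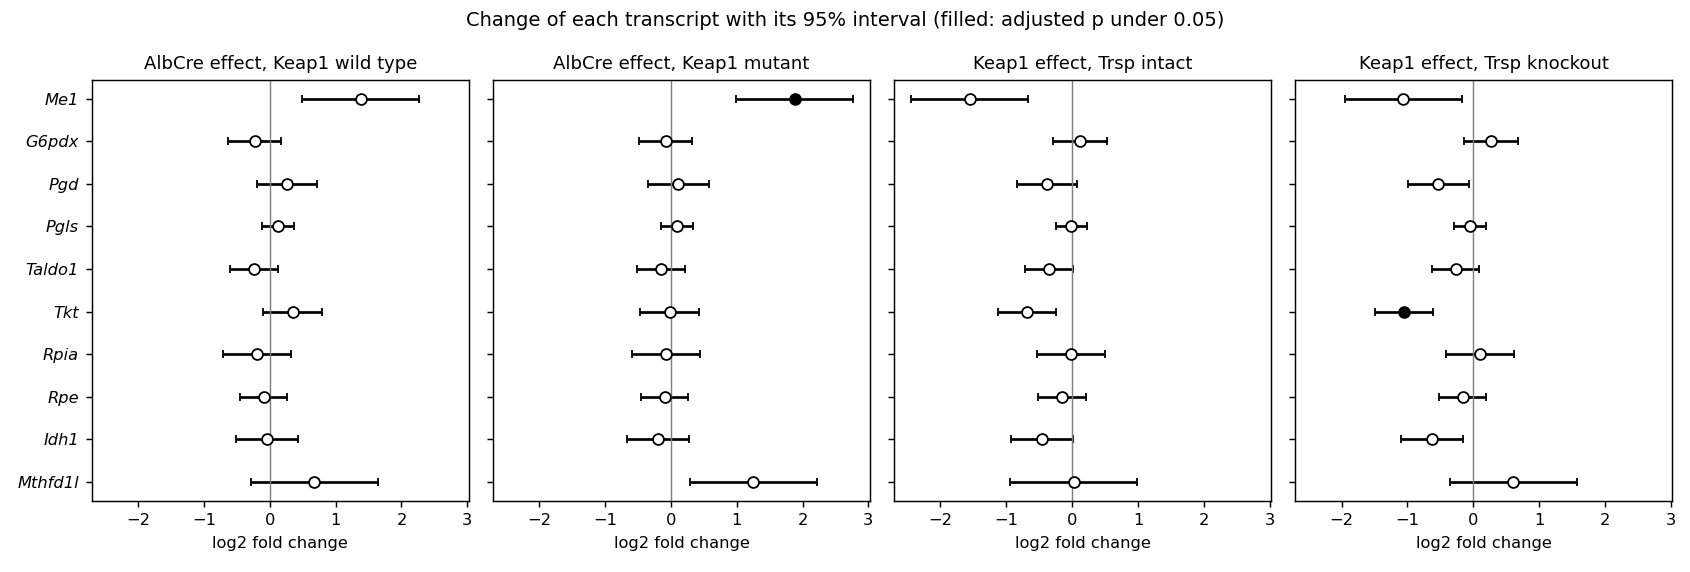
Log2 fold change of each transcript (horizontal axis) in the 4 pairwise comparisons of genotypes, with its 95% interval from limma, not adjusted for the number of genes, and filled points for an adjusted p under 0.05. The 2 filled points are *Me1* with *Trsp* deletion on mutant KEAP1 (1.88) and *Tkt* with the substitutions in the *Trsp* knockout (-1.05).

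At the thresholds of the study limma called 0 of the 10 genes in each comparison. It called 0.215% of all genes for *Trsp* deletion on wild-type KEAP1, 0.171% for it on mutant KEAP1, 0.0127% for the substitutions with *Trsp* intact, 0.57% for them with *Trsp* deleted and 0.057% for the difference of the deletion effects. limma voom on the recovered reads also called 0 of the 10 in each. The study itself, working in iDEP, lists *Me1* among the genes raised by *Trsp* deletion on wild-type KEAP1. In that comparison *Me1* was not called as fitted here (limma adjusted p = 0.204). In 10 other settings its limma adjusted p lay between 0.189 and 0.403. Why this differs from the result of the study was not tested. The study describes most of the rises it lists as cancelled in the double mutant. At an adjusted p under 0.05, 1 of the 10 was higher with *Trsp* deletion on mutant KEAP1 (0.38% of all genes higher, 0.418% lower) and 1 was lower with the substitutions in the *Trsp* knockout (1.29% lower, 0.779% higher). The count was 0 for *Trsp* deletion on wild-type KEAP1 (0.444% higher, 0.114% lower), for the substitutions with *Trsp* intact (0.0317% higher, 0.057% lower) and for the difference of effects (0.038% higher, 0.057% lower).

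At an unadjusted p under 0.05, *Me1* was higher with *Trsp* deletion on wild-type KEAP1 (5.62% of all genes), and *Me1* and *Mthfd1l* on mutant KEAP1 (6.52%). *Me1* and *Tkt* were lower with the substitutions when *Trsp* was intact (4.75%), and *Me1*, *Tkt*, *Idh1* and *Pgd* when it was deleted (9.15%), while the difference of effects had 0 of 10 (10.8%). Groups did not overlap for *Me1*, *Tkt* and *Taldo1*, lower with the substitutions when *Trsp* was intact (3.04% of all genes), for *Tkt* when it was deleted (4.08%) and for *Me1* and *Mthfd1l*, higher with *Trsp* deletion on mutant KEAP1 (3.97%). On wild-type KEAP1 all 10 overlapped, where 3.4% of all genes were separate and higher and 2.62% separate and lower.

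Over the 10 genes the median difference on the log2 scale was 0.04 and -0.05 for *Trsp* deletion on wild-type and mutant KEAP1, beside -0.0147 and -0.0049 over all genes. It was -0.25 and -0.21 for the substitutions with *Trsp* intact and deleted, beside -0.0055 and 0.0061 over all genes, with 8 and 7 of the 10 below 0. Of all genes tested, 48.94% and 50.74% were above 0 in these comparisons.

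The 10 genes also varied between mice of 1 genotype. The pooled SD within genotypes of *Me1* (0.665) was above that of 90.3% of all genes tested, and that of *Mthfd1l* (0.716) above 91.9%. In the *Trsp* knockout, replicates 3 and 4 were both above replicates 1 and 2 for *Me1*, *Tkt*, *Taldo1*, *Pgd*, *Idh1*, *Rpe* and *Rpia*, 7 of the 10 genes, and both below them for *Mthfd1l*. This order, which was noticed in these values, held for 30% of all genes and its reverse for 29.0%, so the pairs of libraries differed over much of the transcriptome. In the control the order of *Me1* was the other way, with replicates 1 and 2 above replicates 3 and 4.

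Genes of the fed, lipogenic liver were set beside the 10 because *Me1* and *G6pdx* follow feeding, and feeding at the time of sampling is not given in the sources used here. In the *Trsp* knockout the mean log2 level of the 19 fed-state genes tested was 9.63, 9.90, 11.21 and 11.30, and 17 of the 19 were higher in both replicates 3 and 4 than in replicates 1 and 2. *Fasn*, fatty acid synthase, was 10.52, 11.05, 12.51 and 12.74 in these 4 mice. *Me1* had the same order of pairs, whereas *G6pdx* had not. Other lists had it too, namely all 4 proliferation markers (mean log2 level 6.68, 5.92, 8.87 and 8.87), all 4 B cell markers (3.47, 3.44, 4.34 and 4.07), 4 of 6 macrophage markers and 5 of 8 genes that answer to thyroid hormone.

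In the control the mean of the list was 11.10, 11.02, 11.19 and 10.22, and its lowest mouse was replicate 4 where that of *Me1* was replicate 3. In the *Keap1* mutant it was 9.91, 10.22, 10.30 and 10.08, lowest in replicate 1 and highest in replicate 3, as was *Me1*. In the double mutant it was 9.59, 9.83, 9.37 and 10.43, lowest in replicate 3 and highest in replicate 4, as was *Me1*. The part of feeding, or of the cells and genes of the other lists, in the spread of *Me1* was not tested.

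**Figure D3:**
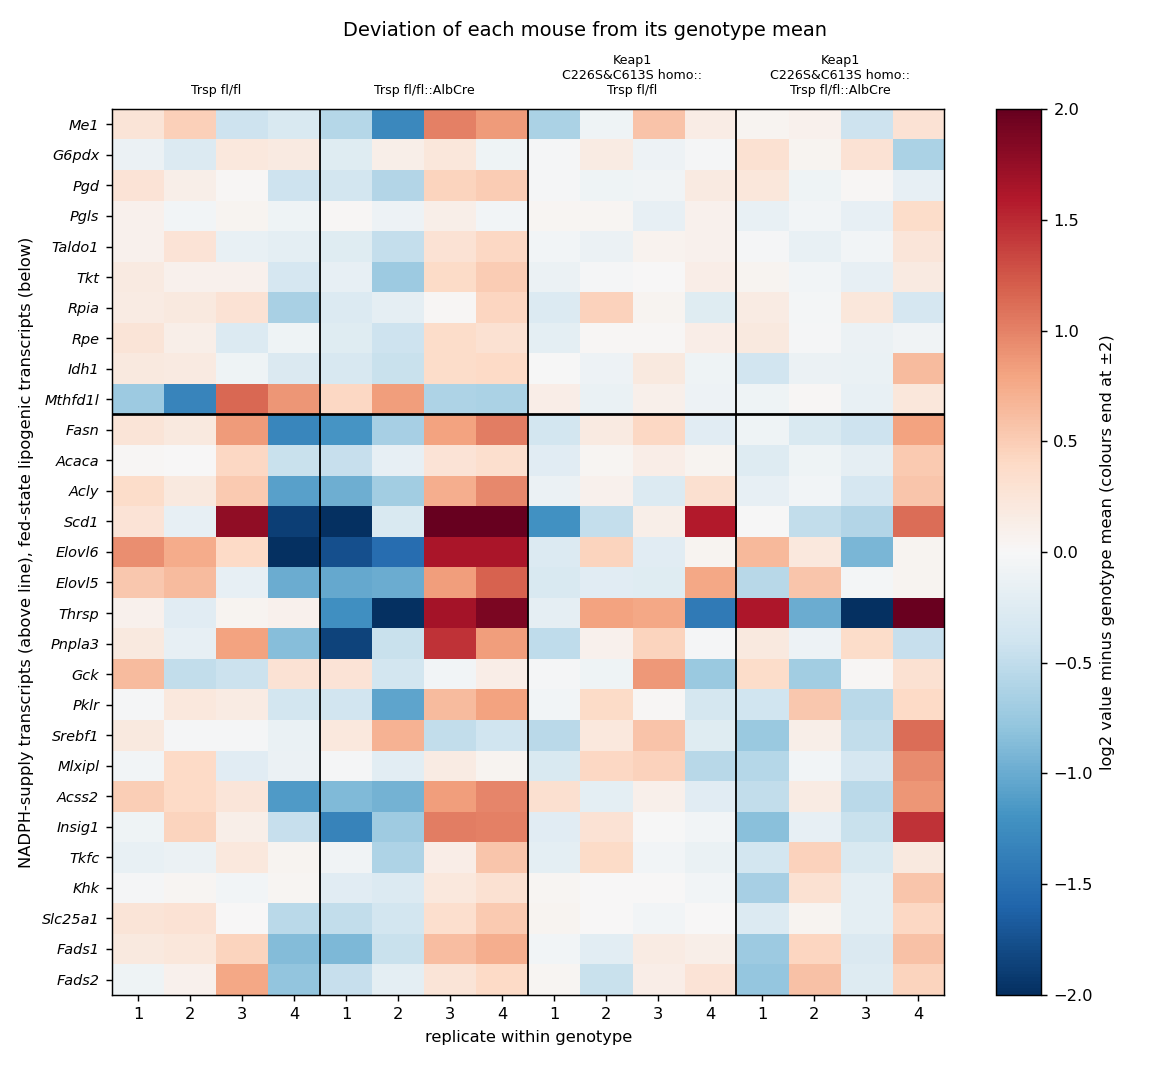
Level of each transcript in each mouse minus the mean of its genotype (colour, log2 scale), for the 10 NADPH-supply genes above the line and the 19 fed-state lipogenic genes below it. In the *Trsp* knockout *Me1* and 17 of the 19 fed-state genes are higher in replicates 3 and 4 than in replicates 1 and 2, and *Mthfd1l* is lower.

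Between genotypes the fed-state genes gave 1 call at an adjusted p under 0.05, *Acss2*, which makes cytosolic acetyl-CoA and was lower with the substitutions in the *Trsp* knockout (log2 fold change -1.96, limma adjusted p = 0.0398). This call held in 6 of 16 fits with 1 library left out and in 7 of 10 other settings, and the adjusted p was 0.127 without double mutant replicate 1. Their median log2 fold change lay between -0.56 and -0.37 in the pairwise comparisons. The desaturases *Fads2*, *Fads1* and *Scd1* and the synthase *Fasn* had the highest levels, and *Scd1* had log2 fold changes from -3.89 to 2.40 with a lowest adjusted p of 0.253. Of 13 fasting genes tested, 0 passed, and among those of highest level *Pck1* and *Tat*, of gluconeogenesis and amino acid use, and *Igfbp1* had log2 fold changes between -0.47 and 0.52. Among genes that answer to thyroid hormone, which selenoprotein deiodinases activate, *Cyp7a1*, *Klf9* and *Gpd2* did not pass, with log2 fold changes between -0.79 and 0.67.

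Other enzymes that make NADPH or its precursor gave few calls. *H6pd*, the dehydrogenase of the endoplasmic reticulum, had log2 fold changes between -0.25 and 0.25, and the 4 genes of the oxidative branch list gave 0 calls at an adjusted p under 0.05. Of 8 genes of the non-oxidative list tested, *Tkt* passed, and *Shpk*, sedoheptulokinase, had log2 fold changes between -0.57 and -0.02 with a lowest adjusted p of 0.0626. Among malic enzymes, isocitrate dehydrogenases and transhydrogenase *Me1* passed, and *Idh2*, the mitochondrial NADP-linked isocitrate dehydrogenase, had log2 fold changes between -0.32 and 0.12. *Nnt*, the mitochondrial transhydrogenase, is listed under 2 gene models between which reads can be divided, 1 of them with 0 reads in *Trsp* knockout replicate 3 and double mutant replicate 1, so its values are uncertain.

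The NAD kinases *Nadk* and *Nadk2*, which make the NADP pool, had log2 fold changes between -0.42 and 0.14 and 0 calls. Among folate genes *Aldh1l1*, which releases NADPH as it oxidizes formyl folate, was lower with the substitutions in the *Trsp* knockout (-0.99, limma adjusted p = 0.0259), with an adjusted p of 0.0828 without double mutant replicate 1. *Mthfd1*, *Shmt2* and *Shmt1*, which carry one-carbon units between folate forms, had log2 fold changes between -0.61 and 0.15 and did not pass.

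Of 12 enzymes that spend NADPH on reduction, 4 were higher and 1 lower with *Trsp* deletion on wild-type KEAP1 at an adjusted p under 0.05. The carbonyl reductases *Cbr3* (3.64, limma adjusted p = 0.000313) and *Cbr1* (1.53, limma adjusted p = 0.00061) rose, as did *Nqo1*, a quinone reductase (2.27, limma adjusted p = 3.01e-05), and *Gsr*, glutathione reductase (0.70, limma adjusted p = 0.0273). *Txnrd2*, a mitochondrial thioredoxin reductase and itself a selenoprotein, was lower (-0.69, limma adjusted p = 0.0132), and also on mutant KEAP1 (-0.85, limma adjusted p = 0.00326), where *Nqo1* was higher (1.13, limma adjusted p = 0.0171, or 0.0597 without double mutant replicate 1).

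With the substitutions in the *Trsp* knockout 5 of the 12 were lower, namely *Cbr3* (-3.91, limma adjusted p = 8.32e-05), *Cbr1*, *Nqo1*, *Blvrb*, a biliverdin and flavin reductase, and *Gsr* (-0.56, limma adjusted p = 0.0477). The call of *Gsr* held in 2 of 10 other settings and 4 of 16 fits with 1 library left out, and without double mutant replicate 1 the adjusted p was 0.126 for *Gsr* and 0.0668 for *Blvrb*. With *Trsp* intact *Nqo1* was lower. The deletion effect differed between the KEAP1 backgrounds for *Cbr1* (-1.58, limma adjusted p = 0.038) and *Cbr3* (-3.49, limma adjusted p = 0.0376). These differences held in 3 and 6 of 16 fits with 1 library left out and each in 5 of 10 other settings, with adjusted p of up to 0.112 and 0.402, and without double mutant replicate 1 the adjusted p was 0.0835 and 0.066. *Por*, which passes electrons to cytochromes P450, and *Txnrd1*, the cytosolic thioredoxin reductase, did not pass, with lowest adjusted p of 0.573 and 0.136.

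Targets of NRF2 outside the 10 gave a reference for the pathway, from a list whose genes were partly known to move in this study and whose direction is therefore no independent evidence. Of 13 tested, 9 were higher with *Trsp* deletion on wild-type KEAP1 at an adjusted p under 0.05 and 5 on mutant KEAP1, and with the substitutions 1 was lower with *Trsp* intact and 10 with *Trsp* deleted. The genes that passed in at least 1 comparison were *Nqo1*, *Srxn1*, *Gclc*, *Gstm1*, *Gsta4*, *Ugdh*, *Abcc4*, *Ephx1*, *Cbr3* and *Aox1*, of which *Gstm1* belongs to a family of close paralogs and is uncertain. *Gclc* passed in 1 comparison, the substitutions in the *Trsp* knockout, with an adjusted p of 0.0207, and of 0.0745 without double mutant replicate 1. *Gclm*, a subunit of the enzyme of glutathione synthesis, had log2 fold changes between -0.26 and 0.31 and did not pass. *Srxn1*, sulfiredoxin, had log2 fold changes of 1.42 and 0.74 with *Trsp* deletion on wild-type and mutant KEAP1 (limma adjusted p = 3.01e-05 and 0.012), beside 1.38 and 1.88 for *Me1*.

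The mean log2 level of the 13 NRF2 targets lay between 9.22 and 9.46 in the control, 10.78 and 11.55 in the *Trsp* knockout, 8.43 and 8.63 in the *Keap1* mutant and 9.10 and 9.65 in the double mutant. The lowest and the highest genotype were those of *Me1*, and the control and double mutant overlapped in both. Inside the *Trsp* knockout the order differed, because the list was highest in replicates 1 and 2, at 11.55 and 11.04, where *Me1* was lowest.

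**Figure D4:**
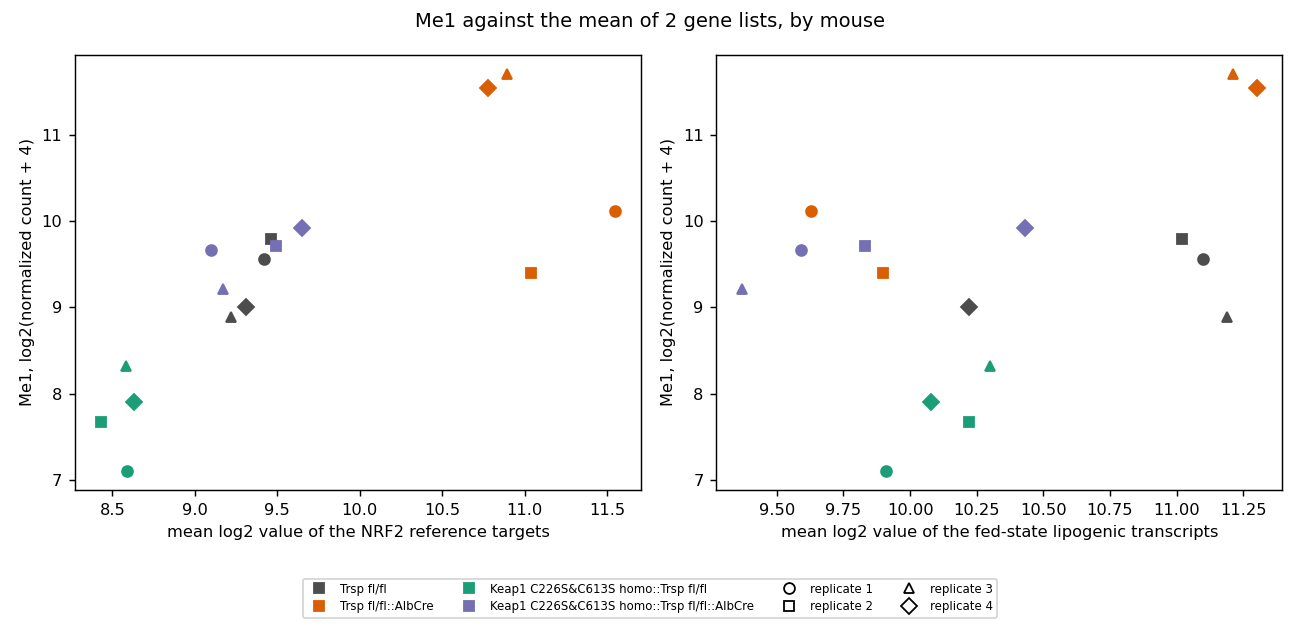
Level of *Me1* in each mouse (vertical axis, log2) against the mean log2 level of 13 NRF2 targets (left) and of 19 fed-state lipogenic genes (right), with colour for genotype and symbol for replicate. *Keap1* mutant mice are lowest for *Me1* and for the NRF2 targets, and within the *Trsp* knockout the 2 mice highest for *Me1* are highest for the fed-state genes and lowest for the NRF2 targets.

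Markers of other liver cells also differed between mice. The summed normalized count of 6 neutrophil markers ranged from 228 to 1321 in the control, 210 to 411 in the *Trsp* knockout, 480 to 1550 in the *Keap1* mutant and 682 to 2281 in the double mutant. *S100a8* was the 1 of the 6 that passed an adjusted p under 0.05, higher with the substitutions in the *Trsp* knockout (2.05, limma adjusted p = 0.0339), the comparison in which *Tkt* was lower, with an adjusted p of 0.0887 without double mutant replicate 1. Summed erythroid markers, 7 of 8 listed, ranged from 21345 to 42332 in the control, 10009 to 22550 in the *Trsp* knockout, 8743 to 17038 in the *Keap1* mutant and 10093 to 63923 in the double mutant, highest in the library with *Xist* reads. No marker of either list that was in the table was at 0 in all mice of a genotype. Markers of macrophages, B and T cells, endothelium, stellate cells, cholangiocytes, erythroid cells and proliferation gave 0 calls at an adjusted p under 0.05, as did those of hepatocytes. The part of these cells in the levels of *Me1* and *Tkt* was not tested.

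The genes most like *Me1* over the 16 libraries, by Pearson correlation of log2 levels, were *mt-Nd3* (r = 0.924), *Mtmr11* (r = 0.904), *Tmem62* (r = 0.893), *Psmb7* (r = 0.890) and *Kyat1* (r = 0.889). Those most like *G6pdx* were *Lsp1* (r = 0.859), *Trem1* (r = 0.852), *P3h4* (r = 0.833), *Ncoa7* (r = 0.830) and *Apaf1* (r = 0.824). The libraries share genotype means, so these values are a description, and neither set held another of the 10 genes.

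**Figure D5:**
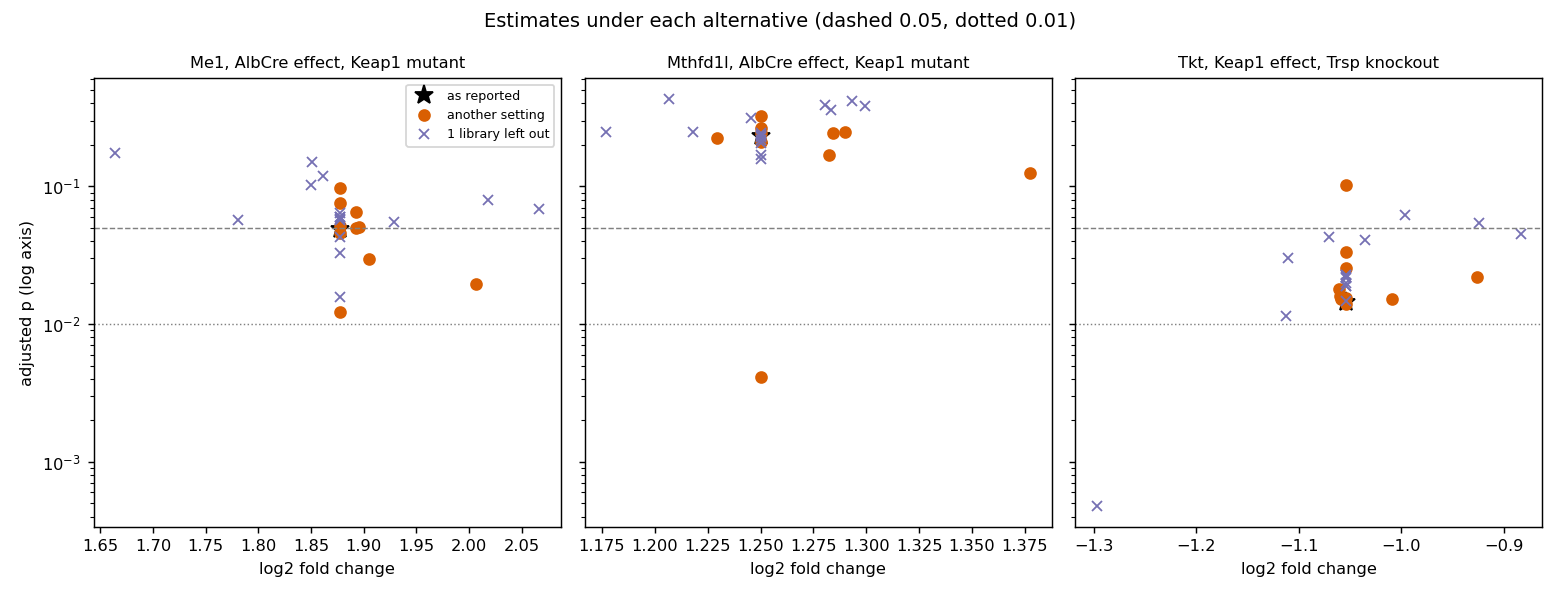
Adjusted p (vertical log axis) against log2 fold change for *Me1* and *Mthfd1l* with *Trsp* deletion on mutant KEAP1 and for *Tkt* with the substitutions in the *Trsp* knockout, as reported, under other settings and with 1 library left out. The adjusted p of *Me1* lies on both sides of 0.05, that of *Mthfd1l* falls to 0.00414 with only the compared genotypes, and that of *Tkt* to 0.000475 without *Trsp* knockout replicate 2.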

How the data were processed

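Liver RNA of 16 mice was sequenced after removal of ribosomal RNA. The authors quantified transcripts with Salmon, processed them with iDEP and deposited log2 values, which equal log2(reads / size factor + 4). Reversing this gave whole reads (within 0.05) for 100% of low values. Rows without an identifier, 0.274% to 0.627% of reads, were left out. Genes that reached 10 normalized counts in 4 or more libraries were tested with limma 3.58.1 in R 4.3.3 (1 mean per genotype, trended eBayes, Benjamini-Hochberg over 15781 genes). In a simulation of *Trsp* deletion on wild-type KEAP1 with 15565 genes, 92 of 100 genes changed by 2 on the log2 scale and 98 of 100 changed by 3 were called. The changed genes were drawn from those with a mean normalized count of at least 100, which *Rpia* did not reach. Smaller changes were not simulated. Counts were drawn independently for each gene, without the differences between mice of 1 genotype that many genes shared. These rates therefore need not hold for these mice. The p-values set each difference of means against the spread between mice within genotypes, pooled over all 4 genotypes and moderated over all genes. Alternatives were other pseudocounts, filters, scalings, voom on recovered reads, fewer groups, the replicate block and each library left out. The members and lists were chosen with earlier results of these data known. Named genes were the 10, those of each list that passed a threshold or were among its 4 of highest mean level, and the 5 most like *Me1* and *G6pdx*. Some genes that this rule names are not reported here.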

Additional observations from a re-analysis of the deposited data

Results flagged for a closer look

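In 40 sets of 4 libraries, 1 for each gene and genotype, 2 held a library far from the others, and chance alone gives about 1 in 20. *Pgd* was highest in *Keap1* mutant replicate 4, at 8.77, and the other mice of that genotype lay between 8.51 and 8.55. *Rpia* was lowest in control replicate 4, at 5.08, and the other mice lay between 5.89 and 6.02.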

How the results depend on the processing

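The count of the 10 genes called at the thresholds of the study was 0 in all 5 comparisons. For *Trsp* deletion on mutant KEAP1 it was 1 with only the compared groups in the fit (*Mthfd1l*) and 1 at an adjusted p under 0.05 (*Me1*). For the substitutions in the *Trsp* knockout it was 1 at an adjusted p under 0.05 (*Tkt*) and 0 to 1 with 1 library left out, being 1 without *Trsp* knockout replicate 2. *Me1* with *Trsp* deletion on mutant KEAP1 had an adjusted p of 0.0501 and 0.051 with pseudocounts of 1 and 0.5, 0.0516 with no filter, 0.0753 without trend and 0.065 with voom. Deviations of same-numbered mice from their genotype means had correlations from -0.315 to 0.31. These are of mixed sign and do not decide whether the numbers pair the samples. With the replicate block the count was 0 in each comparison, and the adjusted p was 0.0978 for *Me1* and 0.0335 for *Tkt*.

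Directions reversed for log2 fold changes of at most 0.165 in size. Library totals shifted the median of all genes by 0.12 for *Trsp* deletion on mutant KEAP1 and by 0.13 for the substitutions in the *Trsp* knockout and the difference of effects. They gave 0.0454 for *G6pdx*, 0.109 for *Tkt*, 0.0421 for *Rpia* and 0.0332 for *Rpe* in the first, 0.0803 for *Pgls* in the second, and 0.0941 for *Pgls* and 0.124 for *Rpe* in the third. Quantile normalization gave 0.0469 for *Rpia* with the substitutions when *Trsp* was intact and 0.0868 for *Idh1* in the difference. With 1 library left out, 14 of 50 pairs of gene and comparison reversed at least once. Their ranges for *Trsp* deletion on substituted KEAP1 were -0.183 to 0.131 for *G6pdx*, -0.0308 to 0.141 for *Pgls*, -0.172 to 0.0751 for *Rpia* and -0.0793 to 0.0373 for *Tkt*. For *Trsp* deletion on wild-type KEAP1 they were -0.169 to 0.113 for *Idh1* and -0.212 to 0.0503 for *Rpe*. For the substitutions with *Trsp* intact they were -0.412 to 0.411 for *Mthfd1l*, -0.0419 to 0.0435 for *Pgls* and -0.236 to 0.0772 for *Rpia*. For the difference they were -0.342 to 0.0255 for *Pgd*, -0.156 to 0.0158 for *Pgls*, -0.146 to 0.117 for *Rpe* and -0.0758 to 0.221 for *Taldo1*. For the substitutions with *Trsp* deleted they were -0.166 to 0.0054 for *Pgls*. The cause was not tested. The 39 results of list and marker genes with an adjusted p under 0.05 kept their direction under every other setting run for them and with each of the 16 libraries left out.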
